A study of Mus musculus with 15 samples.

Results

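Guanylate-binding proteins are large GTPases of the dynamin superfamily whose genes are switched on by interferons. The 10 genes described here, Gbp2 to Gbp11, were taken from the deposited expression table by symbol, each symbol matching 1 of the table's 56979 gene identifiers. All 10 had a value above 0 in at least 1 library. A further family gene, Gbp2b, was outside the list and is given for comparison.

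The libraries came from wild-type mouse bone marrow cells (Mus musculus) of 2 labelled cell types, with 3 libraries in each of 5 groups. The bone marrow-derived macrophages (BMDM) made up LPS_NZM (lipopolysaccharide and then NZM), LPS (lipopolysaccharide, a bacterial outer membrane component that activates macrophages) and Control (vehicle). The BMSC made up Aged_NZM (H2HO and then NZM) and Aged (H2HO). The labels explain neither NZM, H2HO nor the abbreviation BMSC, and strain, sex, age, dose and exposure time are not given in the sources used here. Macrophages with NZM alone, and BMSC that had not received H2HO, were not analysed here. Values are TPM, a length-corrected share of a library's transcripts scaled to a fixed total, so levels can be compared between genes, but the sequencing depth is unknown. The labels do not say whether the 3 libraries of a group are separate animals or cultures, so p-values measure only the spread between libraries, which may be technical.

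The labelled cell types were checked against marker genes. All 10 macrophage markers averaged at least 1 TPM in each BMDM group, and their summed level was 22579 to 29416 TPM per BMDM library, against 107.4 to 129.98 TPM per BMSC library. Of 10 stromal markers, 9 averaged at least 1 TPM in both BMSC groups (Lepr was under 1 TPM). All 10 stromal markers also averaged at least 1 TPM in each BMDM group. Their sums were 2181 to 2886 TPM per BMDM library, 2467 to 2551 TPM in Aged and 5522 to 5541 TPM in Aged_NZM. By its sum this list thus did not separate the BMDM from Aged, while Aged_NZM lay above both. The BMDM libraries held neutrophil transcripts, summing to 1107 to 1388 TPM. Mast cell and basophil markers summed to 3.91 to 519.9 TPM across the Control libraries alone. In these bulk samples, fewer cells of a type and less RNA per cell cannot be told apart.

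In mouse cells, guanylate-binding proteins gather on the vacuoles that enclose intracellular parasites and bacteria, and on bacteria that reach the cytosol. There they help to expose the microbe to the caspase-11 and inflammasome pathways, which end in an inflammatory form of cell death. Macrophages that sense LPS make interferon beta, which signals through the kinases Jak1 and Tyk2 to a complex that contains Stat2 and Irf9. This complex binds a promoter sequence called the interferon-stimulated response element (ISRE), while interferon gamma acts at the gamma-activated site (GAS). The mouse genes lie in 2 clusters. RefSeq (GRCm38.p6) places Gbp5, Gbp7, Gbp3, Gbp2b and Gbp2, in that order, on chromosome 3, and Gbp8, Gbp9, Gbp4, Gbp10, Gbp6 and Gbp11 on chromosome 5. The deposited values were made on GRCm39, so these positions serve only for gene order and sequence.

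Promoter sequences are shown for the genes that had an entry in the RefSeq promoter table used here, all of them in the chromosome 3 cluster. RefSeq promoter windows (GRCm38.p6, from 250 bases before to 50 bases after a transcript start) were found for 4 of the 10 genes, Gbp2, Gbp3, Gbp5 and Gbp7, and for Gbp2b. Each of these 5 genes held at least 1 match to the ISRE core, which is GAAA, any 2 bases and GAAA again, read on either strand. Stretches of 85 to 90 bases of the plus strand, the coding strand of all 5 genes, are printed 5′ to 3′ with the matched bases in capitals, where the motif appears as its reverse complement. They lie at chr3:142620564-142620653 (Gbp2), chr3:142559959-142560043 (Gbp3), chr3:142496729-142496818 (Gbp5), chr3:142530243-142530332 (Gbp7) and chr3:142594670-142594759 (Gbp2b).
Gbp2: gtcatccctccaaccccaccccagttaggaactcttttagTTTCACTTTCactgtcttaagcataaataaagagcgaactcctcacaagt
Gbp3: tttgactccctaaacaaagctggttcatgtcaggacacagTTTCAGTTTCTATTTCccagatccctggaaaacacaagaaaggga
Gbp5: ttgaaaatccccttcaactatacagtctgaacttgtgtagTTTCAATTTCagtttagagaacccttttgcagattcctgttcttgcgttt
Gbp7: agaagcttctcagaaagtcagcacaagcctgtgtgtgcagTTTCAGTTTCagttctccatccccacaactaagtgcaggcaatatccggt
Gbp2b: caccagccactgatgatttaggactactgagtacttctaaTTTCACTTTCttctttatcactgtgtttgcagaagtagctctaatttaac

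The match began 59 bases before the start in Gbp2, 165 in Gbp5, 53 in Gbp7 and 137 in Gbp2b. Gbp3 held 2 matches that overlap each other, 45 and 39 bases before its first start, and none in the window of a second annotated start. Of all 32851 RefSeq promoter windows of the same length, 3.44% held the ISRE core. The GAS motif TTCNNNGAA occurred in the windows of Gbp5 and Gbp7, with 2 matches each, and in 8.30% of all windows. A kappa B motif, the binding sequence of NF-kappa B, occurred in those of Gbp2 and Gbp5 and in 8.46% of all windows. Matches of different motifs did not overlap. A match describes the letters in the window and is not a measured binding site.

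**Figure D1:**
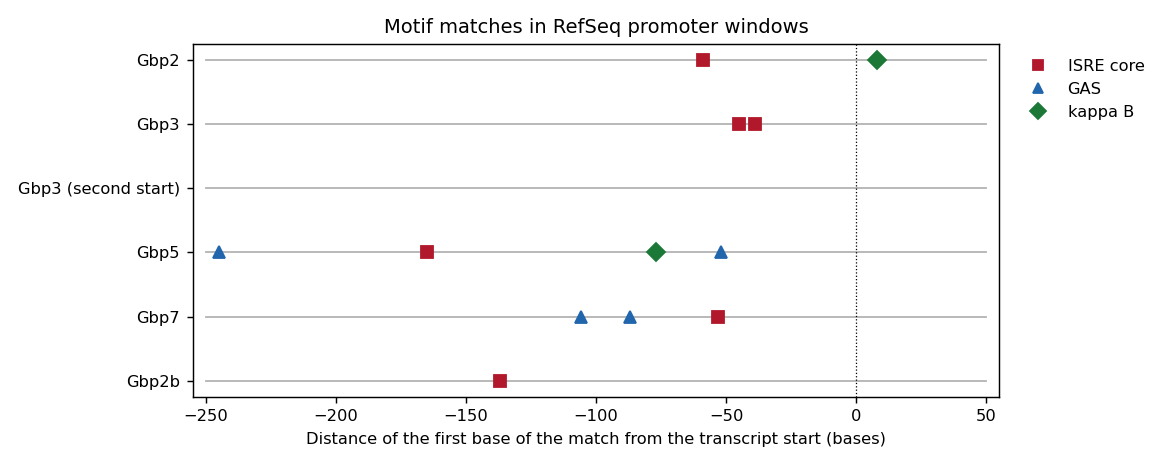
Motif matches in RefSeq promoter windows of 5 guanylate-binding protein genes, plotted by the distance in bases of the first matched base from the transcript start (dotted line). All genes hold an ISRE core match in at least 1 window, the second start of Gbp3 holds no match, and GAS matches appear in Gbp5 and Gbp7.

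Summed over the 10 genes, guanylate-binding protein transcripts came to 116.4 ± 10.8 TPM in LPS_NZM, 3114 ± 17.6 TPM in LPS and 103.2 ± 10.4 TPM in Control (mean ± SD, n = 3 libraries each, as for all such values below). The same sum was 84.4 ± 2.26 TPM in Aged_NZM and 61.8 ± 1.57 TPM in Aged. Every LPS library was therefore far above all other libraries, and LPS_NZM lay close to Control. Control replicate 3, at 115.1 TPM, was above the other Control libraries, at 96.35 and 98.03 TPM. Gbp2 had the highest level of the 10 in every group. In LPS the order of levels was Gbp2, Gbp5, Gbp3, Gbp7, Gbp6, Gbp9, Gbp4, Gbp10, Gbp8 and Gbp11, and only Gbp8 and Gbp11 overlapped as neighbours. In Control it was Gbp2, Gbp9, Gbp7, Gbp3, Gbp6, Gbp5, Gbp8, Gbp4, Gbp10 and Gbp11, with overlap between Gbp9 and Gbp7, Gbp6 and Gbp5, Gbp8 and Gbp4, and Gbp10 and Gbp11. LPS_NZM had the order Gbp2, Gbp9, Gbp7, Gbp3, Gbp5, Gbp6, Gbp8, Gbp4, Gbp10 and Gbp11, in which Gbp9, Gbp7, Gbp3 and Gbp5 overlapped with their neighbours, as did Gbp8 and Gbp4.

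In the BMSC, Gbp6 ranked higher with NZM. The order in Aged_NZM was Gbp2, Gbp6, Gbp9, Gbp3, Gbp7, Gbp10, Gbp5, Gbp4, Gbp11 and Gbp8, with overlap between Gbp3 and Gbp7 and among Gbp4, Gbp11 and Gbp8. In Aged it was Gbp2, Gbp3, Gbp9, Gbp7, Gbp6, Gbp10, Gbp5, Gbp4, Gbp8 and Gbp11, with overlap between neighbours from Gbp9 to Gbp6 and from Gbp10 to Gbp4, and between Gbp8 and Gbp11.

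The make-up of the sum differed between groups. Gbp5 accounted for 11.8% of the summed TPM in LPS_NZM, 27.5% in LPS and 4.10% in Control. Gbp9, in contrast, made up 16.1% in LPS_NZM, 2.58% in LPS and 20.1% in Control, so its share was smallest where the sum was largest. The 4 genes on chromosome 3 together held 76.1% of the summed TPM in LPS_NZM, 89.7% in LPS and 71.0% in Control. In the BMSC they held 58.5% in Aged_NZM and 78.9% in Aged. The share of Gbp2 alone was 36.1% in Aged_NZM and 56.1% in Aged, and that of Gbp6 was 17.5% in Aged_NZM and 7.21% in Aged.

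**Figure D2:**
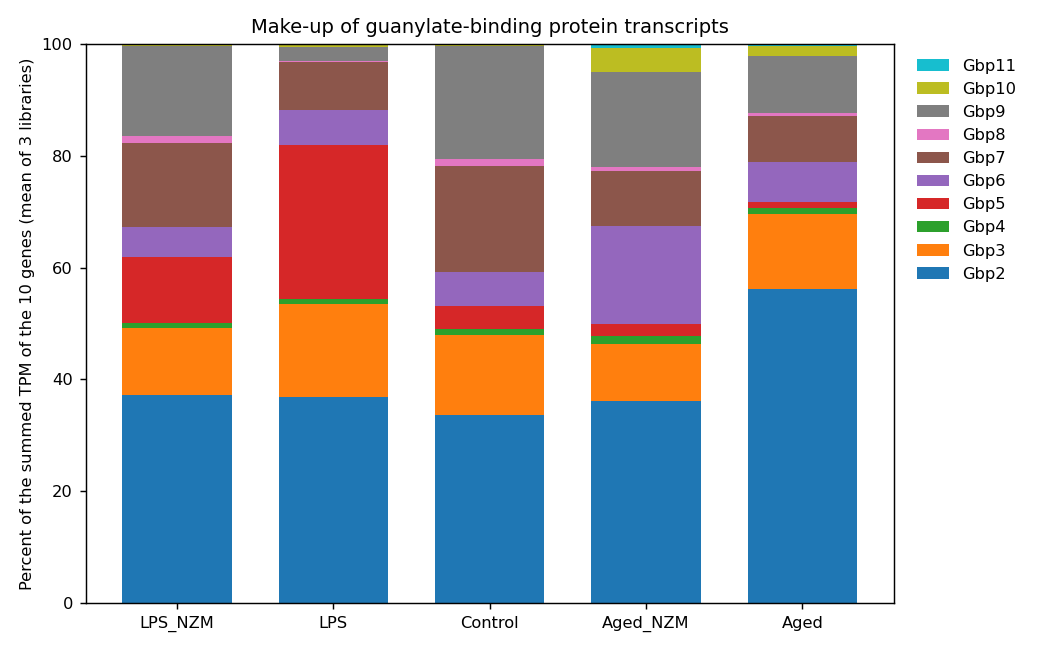
Share of each gene in the summed TPM of the 10 guanylate-binding protein genes, in percent, as the mean of 3 libraries per group. Gbp5 takes 27.5% in LPS, against 4.10% in Control, and Gbp6 takes 17.5% in Aged_NZM, against 7.21% in Aged.

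The comparison of LPS with Control gives the response of the macrophages to the pretreatment. Of the 9 genes tested, 8 rose with LPS and Gbp8 did not pass the test. Over all 14486 genes tested, 80.8% were called in this comparison, 15.2% higher and 65.6% lower in LPS. A rise was thus the less common direction, and a rise of at least 1 on the log2 scale was called for 7% of all tested genes, against 8 of these 9. Gbp10 passed the filter on low values only through its LPS libraries and so had to differ, and without it the count was 7 of 8. The same 8 rose after the median over tested genes was subtracted from each library (centring), where 36.5% of all tested genes were higher and 29.1% lower. For these 8 the groups did not overlap, as for 81.8% of all tested genes. The median log2 change was 3.88 over the 9 tested genes, beside -0.48 over all tested genes. Gbp11 stayed under the filter. Of 10 macrophage markers 5 rose and 5 fell, with Cd14 at 2396 TPM in LPS and 225.4 TPM in Control and Lyz2 at 16306 TPM in LPS and 22620 TPM in Control. Of 3 tested dendritic cell markers only Ccr7 rose, with 21.7 TPM in LPS and 1.46 TPM in Control, while Zbtb46 (1.43 TPM in LPS, 1.98 TPM in Control) and Siglech (4.10 TPM in LPS, 5.29 TPM in Control) did not pass. Their part in the result was not tested. All log2 changes are on the log2(TPM + 1) scale, which understates the change of genes with low levels.

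On chromosome 3, Gbp2 (ENSMUSG00000028270), whose protein carries a lipid anchor and coats pathogen vacuoles, read 40.84, 42.98 and 45.76 TPM in LPS_NZM, 1151, 1165 and 1124 TPM in LPS, and 33.23, 30.55 and 40.43 TPM in Control. All LPS libraries lay far above both other groups, and LPS_NZM lay just above Control without overlap. Its log2 change with LPS was 5.01 (SE 0.085, adjusted p = 1.33e-11). Gbp5 (ENSMUSG00000105504), also lipid-anchored and reported to promote assembly of the Nlrp3 inflammasome, read 13.71, 11.34 and 16.25 TPM in LPS_NZM, 855.4, 857.97 and 855.8 TPM in LPS, and 2.77, 2.61 and 7.77 TPM in Control. The groups did not overlap, and Control replicate 3 stood well above the other Control libraries. The log2 change with LPS was 7.44 (SE 0.287, adjusted p = 4.68e-09), the 8th highest of all tested genes, and it was 7.86 without Control replicate 3.

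Gbp3 (ENSMUSG00000028268), which is recruited to parasite vacuoles in mouse cells, read 12.67, 13.13 and 16.00 TPM in LPS_NZM, 524.99, 505.1 and 526.1 TPM in LPS, and 14.27, 13.99 and 16.01 TPM in Control. LPS stood alone, while the LPS_NZM and Control libraries overlapped. The log2 change with LPS was 5.05 (SE 0.080, adjusted p = 8.82e-12). Gbp7 (ENSMUSG00000040253), reported to bring components of the oxidative burst to bacterial vacuoles, read 15.77, 18.68 and 18.37 TPM in LPS_NZM, 280.1, 269.7 and 266.8 TPM in LPS, and 17.68, 19.49 and 21.43 TPM in Control. Again only LPS was set apart. The log2 change was 3.74 (SE 0.0765, adjusted p = 4.77e-11), the smallest of the 4 genes on chromosome 3.

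On chromosome 5, Gbp6 (ENSMUSG00000104713), whose protein is recruited to parasite vacuoles, read 5.22, 5.87 and 7.64 TPM in LPS_NZM, 187.6, 170.4 and 218.3 TPM in LPS, and 5.53, 6.83 and 6.41 TPM in Control. LPS was high in every library, with more spread relative to its level than the chromosome 3 genes, and the other groups overlapped. The log2 change with LPS was 4.73 (SE 0.130, adjusted p = 3.87e-10). Gbp4 (ENSMUSG00000079363), reported to restrain the interferon factor Irf7 in mouse cells, was near 1 TPM outside LPS. It read 0.79, 1.07 and 1.59 TPM in LPS_NZM, 29.75, 28.79 and 31.72 TPM in LPS, and 1.27, 1.33 and 0.79 TPM in Control. Its log2 change with LPS was 3.88 (SE 0.149, adjusted p = 4.61e-09).

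Gbp9 (ENSMUSG00000029298), another vacuole-associated member, showed the smallest rise of the 8. It read 17.83, 17.66 and 20.71 TPM in LPS_NZM, 84.77, 81.11 and 74.82 TPM in LPS, and 19.82, 21.46 and 20.49 TPM in Control. The LPS libraries were higher than all others, and the log2 change was 1.91 (SE 0.0698, adjusted p = 3.2e-09). In Control it was the second most abundant of the 10 genes by TPM, and in LPS the sixth. Gbp10 (ENSMUSG00000105096) read 0.14, 0.55 and 0.63 TPM in LPS_NZM, 8.23, 13.74 and 24.27 TPM in LPS, and 0.50, 0.06 and 0.65 TPM in Control. Its LPS libraries were all high but differed among themselves more, relative to their level, than those of any other gene that rose, and the log2 change was 3.45 (SE 0.330, adjusted p = 4.46e-06).

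Gbp8 and Gbp11 stayed low in the macrophages. Gbp8 (ENSMUSG00000034438) read 1.19, 1.26 and 1.68 TPM in LPS_NZM, 1.40, 1.16 and 0.43 TPM in LPS, and 1.28, 1.63 and 1.04 TPM in Control, with all groups overlapping. The log2 change with LPS was -0.24 (SE 0.202, adjusted p = 0.292). Gbp11 (ENSMUSG00000092021), which RefSeq lists as a transcribed pseudogene, was listed at 0 in all LPS_NZM libraries, at 0.81, 1.06 and 0.97 TPM in LPS, and at 0, 0.08 and 0.09 TPM in Control. Its LPS libraries were the highest, at levels too low for the filter, so it was not tested.

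**Figure D3:**
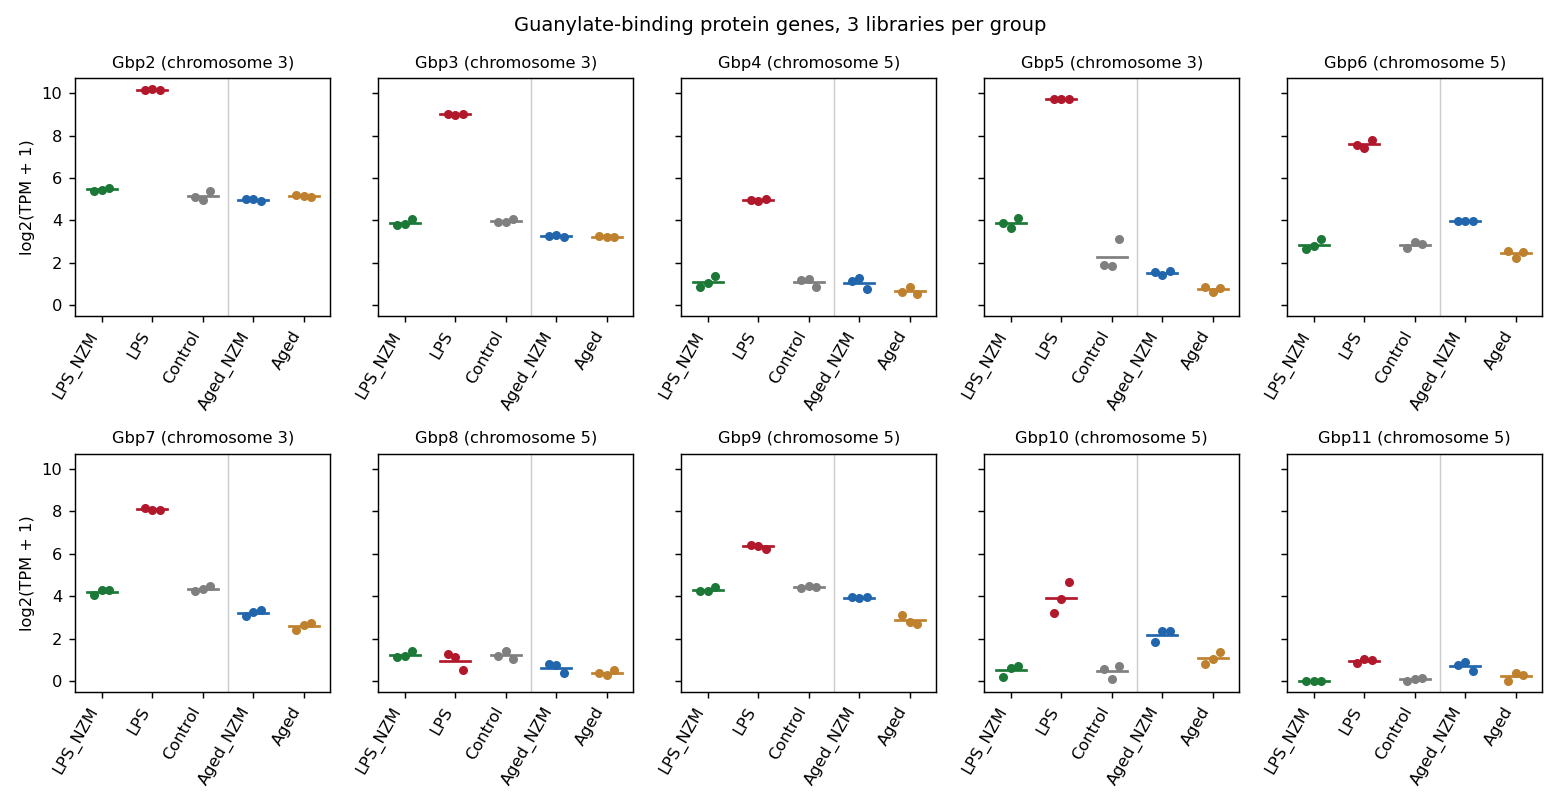
Level of each of the 10 guanylate-binding protein genes in every library as log2(TPM + 1), with points for libraries and a line for the mean of the 3 libraries of a group. BMDM groups stand left of the grey line and BMSC groups right of it. In 8 panels every LPS library is above all libraries of the other groups, while Gbp8 and Gbp11 remain low throughout. The gap is narrowest for Gbp10, at 8.23 TPM in the lowest LPS library and 4.16 TPM in the highest Aged_NZM library.

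The comparison of LPS_NZM with LPS shows what NZM changed in macrophages given LPS. The same 8 genes fell and Gbp8 did not pass the test, where 77.3% of all 14486 tested genes were called, 16.9% lower and 60.4% higher. A fall of at least 1 on the log2 scale was called for 7.14% of all tested genes, against 8 of these 9. Gbp10 had to differ here too, since it passed the filter only through its LPS libraries, and without it the count was 7 of 8. After centring the same 8 fell, with 29.8% of all tested genes higher and 35.3% lower, and their groups did not overlap, as for 79.8% of all tested genes. Gbp5 fell most, with a log2 change of -5.87 (SE 0.287, adjusted p = 2.61e-08), the 8th lowest of all tested genes. Gbp3 followed with -5.13, Gbp6 with -4.74 and Gbp2 with -4.70, with adjusted p-values from 8.98e-12 to 3.67e-10. Gbp7 fell by 3.88, Gbp4 by 3.87, Gbp10 by 3.41 and Gbp9 by 2.04 on the log2 scale. For Gbp8 the change was 0.28 (SE 0.202, adjusted p = 0.231). The median over the 9 tested genes was -3.88, beside 0.40 over all tested genes. Marker transcripts moved with these groups as well. Of 10 macrophage markers 3 rose and 5 fell, with log2 changes of -4.56 for Cd14 and -1.56 for Fcgr1, and Ptprc at 79.6 TPM in LPS_NZM and 320.0 TPM in LPS. Endothelial markers summed to 79.5 to 83.6 TPM per library in LPS_NZM and 38.8 to 43.0 TPM in LPS (3 of 5 tested rose, 1 fell). Pecam1 rose to 55.9 TPM in LPS_NZM from 11.5 TPM in LPS, while Kdr fell to 1.61 TPM from 10.1 TPM. B cell markers summed to 14.3 to 17.1 TPM in LPS_NZM and 4.04 to 6.78 TPM in LPS (1 of 5 tested rose, 1 fell). The one that rose was Cd79b, with 10.3 TPM in LPS_NZM and 1.80 TPM in LPS, and the one that fell was Pax5. The endothelial and B cell sums thus followed mainly Pecam1 and Cd79b. Dendritic cell markers summed to 7.10 to 8.65 TPM in LPS_NZM and 25.5 to 33.9 TPM in LPS, with Ccr7 lower and Zbtb46 higher in LPS_NZM. The part of these marker levels in the falls was not tested. The 3 comparisons among the macrophage groups share libraries, since each group enters 2 of them.

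**Figure D4:**
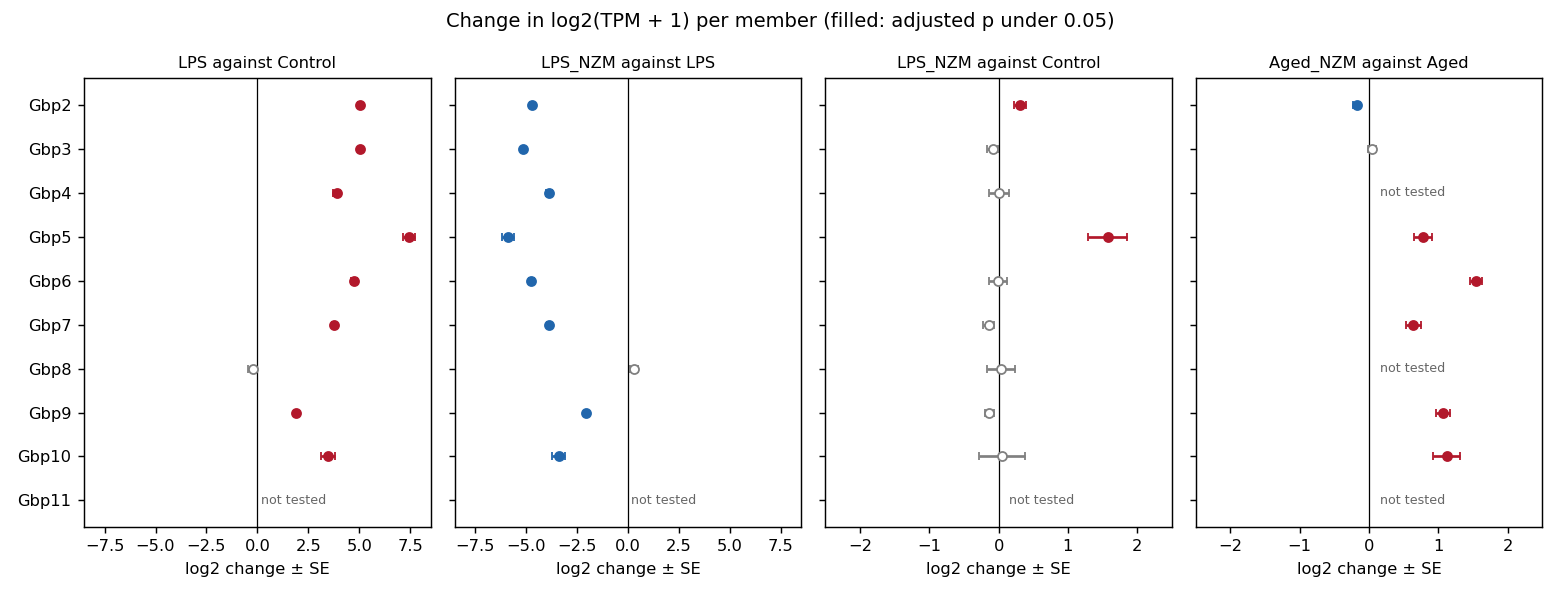
Log2 change of each gene with its standard error in 4 comparisons, on the log2(TPM + 1) scale, with filled points for an adjusted p under 0.05 and a narrower axis in the 2 panels on the right. The 8 rises with LPS stand beside 8 falls with NZM, in comparisons that share the LPS libraries, and 5 genes lie to the right of 0 with filled points in Aged_NZM against Aged. Gbp10 in the 2 panels on the left and Gbp5 in the last panel passed the filter only through the group in which each was higher.

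Setting LPS_NZM against Control shows what was left of the difference from vehicle. Only Gbp2 and Gbp5 passed the test, both higher in LPS_NZM, which is 2 of 9 tested where 47.7% of all tested genes were called, 18.6% higher and 29.1% lower. The same 2 passed after centring, with 24.9% of all tested genes higher and 22% lower. Their groups did not overlap, as for 55.9% of all tested genes, and Gbp5 alone was past a log2 change of 1, as were 2.73% of all tested genes on the higher side. Gbp5 averaged 13.8 ± 2.46 TPM in LPS_NZM and 4.38 ± 2.93 TPM in Control (log2 change 1.57, SE 0.287, adjusted p = 0.00141), and the change was 1.99 without Control replicate 3. Gbp2 averaged 43.2 ± 2.47 TPM in LPS_NZM and 34.7 ± 5.11 TPM in Control (log2 change 0.31, SE 0.085, adjusted p = 0.0126). The other 7 changes lay between -0.14 (Gbp7) and 0.04 (Gbp8 and Gbp10), with adjusted p above the threshold. Leaving out LPS_NZM replicate 3, which was the highest LPS_NZM library for most of the genes, gave 4 calls, the added ones being Gbp3 at -0.18 (adjusted p = 0.0341) and Gbp9 at -0.20 (adjusted p = 0.0252). Gbp7 passed without Control replicate 1, at -0.21 (adjusted p = 0.0461).

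Expressed per gene, the part of the LPS change that was absent in LPS_NZM can be given as the LPS minus LPS_NZM difference over the LPS minus Control difference of mean log2(TPM + 1). It was 0.937 for Gbp2, 1.02 for Gbp3, 0.998 for Gbp4, 0.789 for Gbp5, 1.00 for Gbp6, 1.04 for Gbp7, 1.07 for Gbp9 and 0.987 for Gbp10. Gbp5, the gene with the largest rise, had the lowest of these values, 0.747 without Control replicate 3. The median over the 8 genes was 1.00, beside 0.864 over the 3516 genes called with an absolute log2 change of at least 1 in LPS against Control. Of those 3516 genes, 1014 were higher and 2502 lower in LPS, while all 8 guanylate-binding protein genes were higher. The 2 medians therefore cover sets that differ in direction, and no median over the higher genes alone is given. These ratios are a description without a test, since both differences share the LPS libraries.

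In the BMSC the question was what NZM changed after H2HO. Of the 7 genes tested, 5 were higher in Aged_NZM (Gbp5, Gbp6, Gbp7, Gbp9 and Gbp10), Gbp2 was lower and Gbp3 did not pass, where 70.5% of 13865 tested genes were called, 21.6% higher and 48.9% lower. The groups of the 6 called genes did not overlap, as for 73.8% of all tested genes. The median log2 change was 0.77 over the 7 tested genes, beside -0.18 over all tested genes. Gbp4, Gbp8 and Gbp11 stayed under the filter, and Gbp5 passed it only through its Aged_NZM libraries and so had to differ. The median of 0.77 was the change of Gbp5 itself. Without Gbp5 the genes called higher were Gbp6, Gbp7, Gbp9 and Gbp10. Stromal marker transcripts moved with the groups as well. They summed to 5522 to 5541 TPM per library in Aged_NZM and 2467 to 2551 TPM in Aged, with 8 of 9 tested markers higher in Aged_NZM. Macrophage markers summed to 107.4 to 120.2 TPM in Aged_NZM and 121.5 to 129.98 TPM in Aged, with Adgre1 and Ptprc under 1 TPM in both. The part of these marker levels in the results was not tested.

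Gbp6 showed the largest rise in the BMSC. It read 14.88, 14.97 and 14.50 TPM in Aged_NZM and 4.83, 3.75 and 4.80 TPM in Aged, groups far apart relative to their spread (log2 change 1.54, SE 0.090, adjusted p = 3.77e-07). Gbp10 read 2.61, 4.16 and 4.12 TPM in Aged_NZM and 0.73, 1.07 and 1.61 TPM in Aged, with a log2 change of 1.12 (SE 0.189, adjusted p = 0.000508). Every Aged_NZM library was above every Aged library for both. Gbp9 read 14.46, 13.99 and 14.42 TPM in Aged_NZM and 7.68, 5.87 and 5.52 TPM in Aged, without overlap (log2 change 1.07, adjusted p = 1.14e-05). Gbp6, Gbp9 and Gbp10 were past a log2 change of 1 on the log2(TPM + 1) scale, and 3.66% of all tested genes were called higher by that rule. As a ratio of mean TPM, in which the pseudocount plays no part, Gbp6 was 3.31-fold, Gbp10 3.19-fold, Gbp5 2.71-fold, Gbp9 2.25-fold and Gbp7 1.67-fold higher in Aged_NZM.

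Among the chromosome 3 genes, Gbp7 read 7.24, 8.60 and 9.17 TPM in Aged_NZM and 4.29, 5.17 and 5.55 TPM in Aged (log2 change 0.64, adjusted p = 0.000541). Gbp5 read 1.98, 1.72 and 2.04 TPM in Aged_NZM and 0.79, 0.56 and 0.77 TPM in Aged (log2 change 0.77, adjusted p = 0.00048). Both were higher in all Aged_NZM libraries, at levels far under those of the LPS macrophages. Gbp2 read 30.91, 31.64 and 28.98 TPM in Aged_NZM and 35.85, 34.77 and 33.33 TPM in Aged, lower without overlap (log2 change -0.18, adjusted p = 0.0106). That change was of the size of the median over all tested genes, and after centring it was -0.02 (adjusted p = 0.716). Gbp3 read 8.68, 8.92 and 8.36 TPM in Aged_NZM and 8.58, 8.18 and 8.38 TPM in Aged, with overlap (log2 change 0.04, adjusted p = 0.584, or 0.20 with adjusted p = 0.0138 after centring). On the centred scale 6 of the 7 were higher, Gbp5 among them, and none lower, with 31.1% of all tested genes higher and 35.4% lower.

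The 3 untested genes were low in the BMSC. Gbp4 read 1.21, 1.47 and 0.68 TPM in Aged_NZM and 0.52, 0.81 and 0.43 TPM in Aged. Gbp8 read 0.72, 0.68 and 0.28 TPM in Aged_NZM and 0.30, 0.21 and 0.42 TPM in Aged. Gbp11 was listed at 0.66, 0.89 and 0.38 TPM in Aged_NZM and at 0, 0.31 and 0.23 TPM in Aged. Gbp4 and Gbp8 overlapped between the groups, and Gbp11 did not.

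Gbp2b (ENSMUSG00000040264), the family gene between Gbp3 and Gbp2 on chromosome 3, was expressed mainly in the BMSC. It read 14.71, 15.76 and 16.14 TPM in Aged_NZM and 15.58, 15.61 and 17.62 TPM in Aged. In the macrophages it read 0, 0.10 and 0.17 TPM in LPS_NZM, 0.90, 0.38 and 0.65 TPM in LPS, and 0.19, 0.12 and 0.08 TPM in Control. Its level was far higher in every BMSC library and under 1 TPM in every macrophage library. Its promoter window holds a match to the ISRE core, as do those of its neighbours, but farther from the start than in Gbp2 and Gbp3. Any part of the motif in its level was not tested. With NZM in the BMSC its log2 change was -0.06 (adjusted p = 0.43).

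The levels of Gbp6 and Gbp10 carry an uncertainty that comes from shared sequence. In the GENCODE M21 transcripts (GRCm38), 59.1% of the 150-base windows of Gbp6 and 66.6% of those of Gbp10 also occur in another gene. For both, the partners are each other and Gm43302, a gene whose annotated span overlaps both on the same strand. Of the other members, Gbp7 shared 8.77% of its windows with Gm43802, Gbp4 and Gbp11 shared 2 windows with each other, and Gbp2, Gbp3, Gbp5, Gbp8 and Gbp9 shared none. Reads from shared windows can be assigned to any of the genes that hold them.

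Gm43302 read 39.66, 47.96 and 0 TPM in LPS, and in LPS replicate 3, where it was listed at 0, Gbp6 and Gbp10 were at their highest. Within LPS the sum of the 3 genes spread less than Gm43302, Gbp6 or Gbp10 alone. The sum was 5.90, 7.05 and 8.27 TPM in LPS_NZM, 235.5, 232.1 and 242.6 TPM in LPS, and 7.32, 8.38 and 7.81 TPM in Control. The log2 change of the sum was 4.75 for LPS against Control (SE 0.095, adjusted p = 3.99e-11), -4.89 for LPS_NZM against LPS and -0.14 for LPS_NZM against Control (adjusted p = 0.26). In the BMSC the sum was 45.78, 47.81 and 48.86 TPM in Aged_NZM and 13.88, 13.68 and 13.63 TPM in Aged, with a log2 change of 1.72 (SE 0.046, adjusted p = 3.85e-09). Gm43302 held most of it there, at 28.29, 28.68 and 30.24 TPM in Aged_NZM and 8.32, 8.86 and 7.22 TPM in Aged. The directions of Gbp6 and Gbp10 with LPS, with NZM after LPS and with NZM in the BMSC were those of the sum, while the split among the 3 genes is uncertain.

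**Figure D5:**
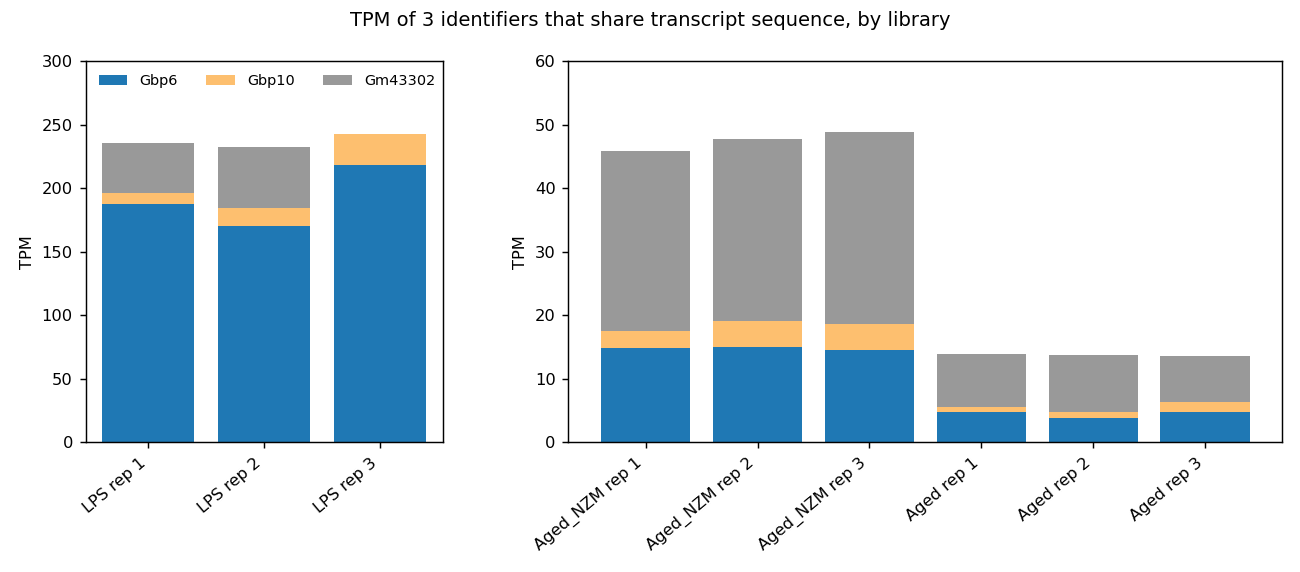
TPM of Gbp6, Gbp10 and Gm43302, 3 genes that share transcript sequence, stacked by library for LPS (left) and for Aged_NZM and Aged (right). In LPS replicate 3 Gm43302 is absent and Gbp6 and Gbp10 are at their highest, while the stacks of the 3 LPS libraries reach 232.1 to 242.6 TPM.

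The NZM responses of the cell types were compared in a single fit of all 15 libraries, as the change in BMSC minus the change in BMDM. The difference was positive and passed the test for 8 of 9 genes tested, where 72% of 16696 tested genes were called, 17.2% positive and 54.8% negative. After centring the same 8 passed, with 39.9% of all tested genes positive and 28.7% negative. It was largest for Gbp5 at 6.65 and Gbp6 at 6.28 on the log2 scale, and smallest among the 8 for Gbp9 at 3.11. Gbp8 did not pass (-0.04, adjusted p = 0.904). For Gbp5, Gbp6, Gbp7, Gbp9 and Gbp10 the directions were opposite, lower in LPS_NZM than in LPS and higher in Aged_NZM than in Aged. Cell type and pretreatment cannot be told apart in this difference, since the BMDM received LPS and the BMSC received H2HO.

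Transcripts of the interferon pathway, which acts upstream of these genes, were compared in the same libraries. Over all tested genes 15.2% were higher and 65.6% lower in LPS than in Control. Of 5 tested genes for interferons and their receptors, 4 were higher in LPS than in Control and 1 lower. Ifnb1, encoding interferon beta, read 2.69, 2.43 and 1.97 TPM in LPS and 0.16, 0 and 0 TPM in Control. It passed the filter only through its LPS libraries and so had to differ, and Ifng and Ifna4 were at most 0.19 TPM in any library. The receptor gene Ifngr1 was the one that fell, averaging 57.4 TPM in LPS and 141.4 TPM in Control. Of 9 signalling kinases and factors, 8 rose and 1 fell with LPS, with Jak2 at 230.4 TPM in LPS and 24.7 TPM in Control, and Stat2 at 256.9 TPM in LPS and 102.0 TPM in Control. On the scale centred on the median all 9 rose, as did 36.5% of all tested genes. The feedback inhibitors Socs1, Socs3 and Usp18 rose by log2 changes of 3.47, 6.46 and 4.01, and of the 6 inhibitor genes tested 5 rose and 1 fell.

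With NZM after LPS, 8 of these 9 kinases and factors fell, including Stat2 (log2 change -2.11) and Jak2 (-1.51). Ifnb1 read 0.15, 0 and 0.47 TPM in LPS_NZM, and it had to differ here too, since only its LPS libraries passed the filter. Of all tested genes 16.9% fell and 60.4% rose. Against Control, Stat2 was lower in LPS_NZM, with a log2 change of -0.78, while Jak2 (1.66), Irf1 (1.05) and Socs1 (3.96) were higher. Of the 9 kinases and factors, 4 were higher and 4 lower in LPS_NZM than in Control, where 18.6% of all tested genes were higher and 29.1% lower. Gbp2 and Gbp5 were above Control in the same libraries, and any link to these levels was not tested. In the BMSC 4 of 8 tested kinases and factors rose and 1 fell with NZM (7 and none on the centred scale), with Jak2 at 38.8 TPM in Aged_NZM and 26.4 TPM in Aged, and Irf1 at 38.8 TPM in Aged_NZM and 26.3 TPM in Aged. Of all genes tested in the BMSC, 21.6% rose and 48.9% fell (31.1% and 35.4% on the centred scale).

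The immunity-related GTPases, a neighbouring family that acts on the same vacuoles, showed the same directions in the macrophages. All 8 tested were higher in LPS than in Control, with a median log2 change of 2.93, and all 8 were lower in LPS_NZM than in LPS, with a median of -3.37. Of all tested genes, 15.2% were higher in LPS than in Control and 16.9% were lower in LPS_NZM than in LPS. Iigp1 averaged 7.49 TPM in LPS_NZM, 203.6 TPM in LPS and 11.2 TPM in Control. All 8 were also lower in LPS_NZM than in Control, with a median of -0.52, and Irgm1 changed by -0.74 (adjusted p = 2.53e-08). In that comparison 29.1% of all tested genes were lower and 18.6% higher. The difference from the guanylate-binding protein genes, of which 2 were higher and none lower there, was not tested. Tgtp1 and Tgtp2, near-identical copies whose reads can be split between them, rose by 3.73 and 3.49 with LPS. The other interferon-induced large GTPases tested, Mx1, Mx2 and Gvin1, rose with LPS (3.94, 3.70 and 1.69) and fell with NZM (-4.14, -4.41 and -1.89). In the BMSC 3 of 5 tested immunity-related GTPases rose with NZM, led by Ifi47, with 11.4 TPM in Aged_NZM and 4.03 TPM in Aged (log2 change 1.30, adjusted p = 1.5e-06). Of all genes tested in the BMSC, 21.6% rose.

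Downstream, 8 of 10 tested genes for caspases, gasdermin D and the inflammasome rose with LPS and 2 fell, where 15.2% of all tested genes rose. Casp4, which encodes caspase-11, averaged 19.6 TPM in LPS_NZM, 205.8 TPM in LPS and 11.6 TPM in Control, and remained higher in LPS_NZM than in Control (log2 change 0.71, adjusted p = 2.96e-05). Nlrp3, the sensor linked to Gbp5, averaged 52.3 TPM in LPS_NZM, 407.3 TPM in LPS and 37.5 TPM in Control. Genes for enzymes that modify or place these proteins were mostly lower as deposited, as were 65.6% of all tested genes. After centring 36.5% of all tested genes were higher and 29.1% lower. All 6 tested genes of the prenylation pathway, whose products attach a lipid anchor (Fnta, Fntb) or process the protein after that (Icmt), were lower in LPS, with Icmt at 16.8 TPM in LPS and 34.6 TPM in Control, while 1 rose and 3 fell on the centred scale. Of 10 genes of the ATG8 conjugation system, which helps to target these GTPases to vacuoles, 9 were lower in LPS, and after centring 5 rose and 1 fell. Atlastins and dynamins, related GTPases not known as interferon targets, fell in 6 of 6 tested, with 1 rising and 1 falling after centring.

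With NZM after LPS, 8 of the 10 caspase and inflammasome genes fell and 2 rose, as deposited and after centring. Casp4 changed by -3.33, Nlrp3 by -2.94 and Il18, the gene of an inflammasome-processed cytokine, by -3.30 on the log2 scale. Of the prenylation pathway genes 5 of 6 rose and none fell (3 and 1 after centring), and of the ATG8 genes 8 of 10 rose and none fell (2 and 5 after centring). Over all tested genes 60.4% rose and 16.9% fell (29.8% and 35.3% after centring). In the BMSC, 1 of 5 tested caspase and inflammasome genes rose with NZM and 2 fell (1 and 1 after centring), 5 of 6 prenylation pathway genes fell and none rose (3 fell and 1 rose after centring), and of 10 ATG8 genes 3 rose and 6 fell (4 and 5 after centring), where 48.9% of all tested genes were lower and 21.6% higher.

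Genes outside the lists used here were ranked by how closely their pattern followed that of the guanylate-binding proteins. The measure was the Pearson correlation of log2(TPM + 1) with the mean of the 9 members that passed the filter. It was taken over the 15 libraries for 12651 candidate genes above a minimum group mean. The immunity-related GTPases and all other listed genes were not candidates, so their likeness was not ranked. The closest candidates were Cers6 (r = 0.998), Mxd1 (0.996), Dram1 (0.996), Acsl1 (0.992), Pml (0.992) and Notch2 (0.992). Cers6 averaged 234.5 TPM in LPS_NZM, 941.8 TPM in LPS, 219.3 TPM in Control, 194.4 TPM in Aged_NZM and 160.0 TPM in Aged, the same order of groups as the summed guanylate-binding protein transcripts. The LPS libraries stand apart from the rest on both measures, so these values describe that gap as well as the likeness. Within the 6 BMSC libraries r was 0.960 for Cers6, 0.981 for Mxd1 and 0.469 for Pml.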

How the data were processed

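Polyadenylated RNA from 15 libraries (9 BMDM, 6 BMSC) was read as paired 150-base reads after a stranded preparation, per the labels' protocols. The authors deposited TPM for 56979 gene identifiers; per the submitters' processing notes, fastp, HISAT2, StringTie and RSEM were used with GRCm39, without stated versions or roles. Columns summed to 999999 to 1000001, so depth is unknown and no counting interval is given. A name table matched 52072 identifiers to symbols and left 4907 without one.

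Group differences in log2(TPM + 1) were tested two-sided in limma 3.58.1 under R 4.3.3 with a mean-variance trend, the BMDM and BMSC libraries each in a fit of their own and all 15 for the difference between NZM responses. Genes with at least 1 TPM in at least 3 libraries of a fit were tested, with Benjamini-Hochberg adjustment over all of them (threshold 0.05). The members and lists were chosen with earlier results of these data known. The text names all 10 genes, Gbp2b, and up to 4 genes with the largest change per list and comparison. It also names the 6 genes most alike in pattern among those outside the lists and above a minimum group mean. Gm43302 and Gm43802 were named for their shared sequence after the values were seen, and marker genes from their lists. Other interferon genes are given only for their low level. Irgb10 and Ifgga2 to Ifgga4 were not matched in the name table. The procedure was also run on simulated data with independent noise, in which few genes changed, all of them above a minimum level. That run does not speak for genes near 1 TPM or for comparisons in which most genes were called. Alternatives were another pseudocount, other filters, median centring, quantile normalization, no trend, a replicate block, other sets of libraries in the fit, leaving out each library, a minimum absolute log2 change of 1, and the sum of Gbp6, Gbp10 and Gm43302. Figures were drawn with Python 3.11.15 and matplotlib 3.10.9.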

Additional observations from a re-analysis of the deposited data

Results flagged for a closer look

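The change with NZM in the BMSC minus that in the BMDM differed by the limma test of the difference itself for 8 of the 9 guanylate-binding protein genes tested (Gbp11 was not), where 72% of 16696 tested genes were called, 17.2% with a positive difference. It was 4.52 for Gbp2 (BMSC change -0.18, BMDM change -4.70), 5.17 for Gbp3, 4.28 for Gbp4, 6.65 for Gbp5, 6.28 for Gbp6, 4.52 for Gbp7, 3.11 for Gbp9 and 4.52 for Gbp10, on the log2(TPM + 1) scale. Gbp2b differed as well, by 0.52 (adjusted p = 0.00749). It was under 1 TPM in all macrophage libraries, with a mean of 0.09 TPM in LPS_NZM and 0.643 TPM in LPS, and a mean of 15.5 TPM in Aged_NZM and 16.3 TPM in Aged. Cell type and pretreatment cannot be told apart in these differences.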

How the results depend on the processing

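A minimum absolute log2 change of 1, added after seeing the data, lowered the counts of genes called to 3516 (LPS against Control), 3232 (LPS_NZM against LPS), 651 (LPS_NZM against Control), 1089 (Aged_NZM against Aged) and 5520 (difference of NZM responses), against 11705, 11197, 6915, 9774 and 12020. It left 1 member called in LPS_NZM against Control and 3 in Aged_NZM against Aged. Leaving out a library gave 2 to 4 members called in LPS_NZM against Control, and 7 to 8 in LPS against Control, since Gbp10 then missed the filter without any 1 LPS library, as Gbp5 did in the BMSC without any 1 Aged_NZM library. Replicate numbers were not taken to pair libraries, since the deviations of same-numbered libraries correlated at -0.076 to 0.199 and not above 0.1 in every pair of any comparison. The replicate block left the members called at 8, 8, 2, 6 and 8 in these comparisons, as without it, and genes called at 11683, 11089, 6681, 9688 and 11963; it changed no other call. Signs turned only in changes that had not passed the test, except for Gbp2 in the BMSC. Under median centring these were Gbp8 in LPS against Control (0.31) and in LPS_NZM against LPS (-0.18), Gbp3 (0.00045) and Gbp6 (0.070) in LPS_NZM against Control, Gbp2b in the BMSC (0.10) and Gbp8 in the difference of responses (0.59). Under quantile normalization they were Gbp8 in LPS against Control (0.036), Gbp3 (0.015) and Gbp6 (0.10) in LPS_NZM against Control, Gbp2 (0.0013) and Gbp2b (0.089) in the BMSC, and Gbp8 in the difference of responses (0.14, or 0.091 with a pseudocount of 0.1). Leaving out a library moved LPS_NZM against Control over -0.14 to 0.13 for Gbp4, -0.15 to 0.090 for Gbp6, -0.051 to 0.13 for Gbp8 and -0.14 to 0.20 for Gbp10, and the difference of responses of Gbp8 over -0.19 to 0.19. The sum with Gbp6 and Gm43302 turned Gbp10 to -0.14 there. Gbp2 in the BMSC also missed the threshold with all 15 libraries fitted (adjusted p = 0.0625). The rise of Socs1 in LPS_NZM against LPS (0.49) was 0.03 after centring and 0.15 after quantile normalization. Of 677 values of single members under alternatives, 644 kept direction and side of the threshold. Genes under about 1 TPM (Gbp8, Gbp11) could not be resolved from these values, and the causes of the turned signs were not tested.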
